A study of Homo sapiens with 6 samples.

Results

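NRF2, encoded by NFE2L2, is the transcription factor through which cells adjust their defence against oxidants and electrophiles, and 9 genes of that system were followed here in regorafenib-treated cholangiocarcinoma cells. They were NFE2L2 itself, its classical targets HMOX1, NQO1, TXNRD1, SRXN1 and OSGIN1, and the glutathione enzyme genes GCLC, GCLM and GSR. A gene was measured by the array probe sets annotated to its symbol alone, which gave 19 probe sets for the 9 genes, out of 41091 such probe sets and 19775 genes. The study hybridized RNA of 2 human bile duct carcinoma lines, KKU-100 and HuCCT1 (spelled HuccT1 in the sample labels), to 6 Affymetrix expression arrays, 1 for each of solvent control, low dose and high dose of regorafenib, an inhibitor of several receptor and RAF kinases, in each line, with treatment lasting hours rather than days. The labels give the low dose as 1 μM and the high dose as 10 μM, whereas the study's text gives other doses, and low dose and high dose are used here as names only. The labels of all 6 samples also describe stably transduced cells selected with puromycin, with no construct named, and the study kept the 2 lines in different culture media.

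In resting cells NRF2 is bound by KEAP1, which presents it to a CUL3 and RBX1 ubiquitin ligase for destruction. Oxidants and electrophiles modify cysteines of KEAP1, NRF2 then accumulates, pairs with a small MAF protein and binds antioxidant response elements, which the repressor BACH1 can occupy instead. Control is therefore largely at the level of the protein, and the mRNA of NFE2L2 is not a measure of NRF2 activity. The targets clear heme, quinones and peroxides and supply the thioredoxin and glutathione systems with reducing power. Several carcinomas keep the pathway switched on through mutation of KEAP1 or NFE2L2.

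The promoters of the genes were searched for the core letters of the antioxidant response element, TGACNNNGC, or GCNNNGTCA where it lies on the other strand, in RefSeq windows (GRCh38.p14) from 250 bases before to 50 bases after the annotated start. Of 35116 such windows, 13.3% held a match. The 7 genes with a window here (all but HMOX1 and GSR) had 9 windows, and GCLM and TXNRD1 had a match. Their matches are shown because both genes belong to those that were higher in KKU-100 than in HuCCT1, with 24 bases on each side and the 9 matching letters in capitals. The GCLM stretch lies at chr1:93909432-93909488 on the minus strand, with its match at −34 to −26 from the start, and the other 2 lie before 2 alternative starts of TXNRD1 on the plus strand, at chr12:104215656-104215712 (match at −99 to −91) and chr12:104286906-104286962 (match at −102 to −94).
GCLM: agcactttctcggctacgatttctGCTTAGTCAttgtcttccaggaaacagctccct
TXNRD1, first start: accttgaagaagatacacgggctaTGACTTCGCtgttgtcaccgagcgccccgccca
TXNRD1, second start: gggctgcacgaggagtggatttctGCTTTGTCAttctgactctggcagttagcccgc
The GCLM match and that of the second TXNRD1 start read in the antisense direction, and that of the first start reads in the sense direction. The first TXNRD1 start holds 1 more match, across the start itself, which is not shown. A match of letters is a description and no binding was measured. The windows of NFE2L2, NQO1, SRXN1, GCLC and OSGIN1 held no match, which says only that these letters are not within them. Of these, NQO1, SRXN1, GCLC and OSGIN1 were also higher in KKU-100, so some of the higher genes held a match and others did not. Whether a match goes with a higher level cannot be told from so few genes.

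The arrays had median signals from 28.8 to 29.3, close enough to each other that the linear signals were taken to log2 without further scaling. With 1 array per condition, a difference from solvent has no replicate check and carries no p-value. A gene was called past 1.5-fold, the cutoff of the study, which is 0.585 on the log2 scale. Because the low and the high dose are set against the same solvent array, agreement between them is not replication. All 9 genes passed the level filter (a mean log2 signal at or above the median of all probe sets) in both lines. Where a gene has several probe sets, the 1 of highest mean signal stands for it, and the others are given where they differ. In RNA from whole cultures, fewer expressing cells and less RNA per cell cannot be told apart.

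The 2 lines stood far apart before any drug. In solvent, 8 of the 9 genes were over 1.5-fold higher in KKU-100 than in HuCCT1 cells and 0 were lower, with a median log2 difference of 1.77, beside 22.7% of 12833 genes higher, 23.8% lower and a median of 0.00 over all genes. On all 3 arrays of KKU-100, 8 of the 9 genes lay above all 3 arrays of HuCCT1, where 29.8% of all genes did so. The exceptions were GSR, which missed the cutoff in solvent, and NFE2L2, whose signals overlapped between the lines.

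NQO1, which reduces quinones to hydroquinones, had signals of 11125 in solvent, 11554 under the low and 10707 under the high dose in KKU-100, against 1537, 1364 and 1563 in HuCCT1. Its KKU-100 signals were thus 7.24-fold, 8.47-fold and 6.85-fold those of HuCCT1 at the 3 treatments, and its other 2 probe sets differed by 10.0-fold and 8.73-fold in solvent. HMOX1, the heme-degrading enzyme heme oxygenase 1, had 590, 922 and 557 in KKU-100, against 78.3, 72.4 and 106 in HuCCT1. The lines did not overlap for either gene, and the KKU-100 signal of HMOX1 was 7.53-fold that of HuCCT1 in solvent, 12.7-fold under the low and 5.26-fold under the high dose.

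SRXN1, sulfiredoxin, which restores over-oxidized peroxiredoxins, had signals of 6736, 4024 and 3978 in KKU-100 (solvent, low, high), against 1529, 1073 and 1643 in HuCCT1. OSGIN1, a growth inhibitor induced by oxidative stress, had 216, 91.4 and 125 in KKU-100, against 43.9, 41.8 and 57.4 in HuCCT1. TXNRD1, the cytosolic thioredoxin reductase, had 8715, 6609 and 6215 in KKU-100, against 4642, 3362 and 4333 in HuCCT1. In all 3 genes the highest KKU-100 signal was that in solvent, and the distance between the lines was narrower under the high dose than in solvent, at 2.42-fold against 4.41-fold for SRXN1. For OSGIN1 it was 2.19-fold under the high dose, against 4.92-fold in solvent. A second TXNRD1 probe set lay at signals between 4.57 and 5.64, near the lowest on the arrays.

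GCLC and GCLM encode the catalytic and the modifier subunit of glutamate-cysteine ligase, the rate-limiting enzyme of glutathione synthesis. GCLC had signals of 2717, 2020 and 1543 in KKU-100, against 798, 672 and 950 in HuCCT1. GCLM had 4278, 2877 and 2843 in KKU-100, against 2062, 1676 and 2539 in HuCCT1. Under the high dose the lines had come close to each other, with 1.62-fold for GCLC and 1.12-fold for GCLM, where solvent cells had 3.40-fold and 2.07-fold. The 2 other GCLM probe sets kept the lines further apart, with signals of 738 to 1020 in KKU-100 against 248 to 310 in HuCCT1, and of 1025 to 1283 against 255 to 409. GSR, glutathione reductase, which regenerates reduced glutathione with NADPH, had 529, 613 and 492 in KKU-100, against 442, 395 and 406 in HuCCT1, a narrow gap, and its second probe set overlapped between the lines (133 to 214 in KKU-100, 172 to 205 in HuCCT1).

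NFE2L2 had signals of 2667 in solvent, 1559 under the low and 1849 under the high dose in KKU-100, against 1686, 1958 and 2322 in HuCCT1. KKU-100 was the higher line in solvent, by a log2 difference of 0.66, and the lower line at both doses, by −0.33 each. A second probe set had 97.0, 72.1 and 63.7 in KKU-100, against 95.4, 105 and 118 in HuCCT1, with a log2 difference of 0.02 in solvent. The remaining one lay between 28.0 and 29.7 in KKU-100, against 33.6 to 39.0 in HuCCT1, close to the median of the arrays.

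**Figure D1:**
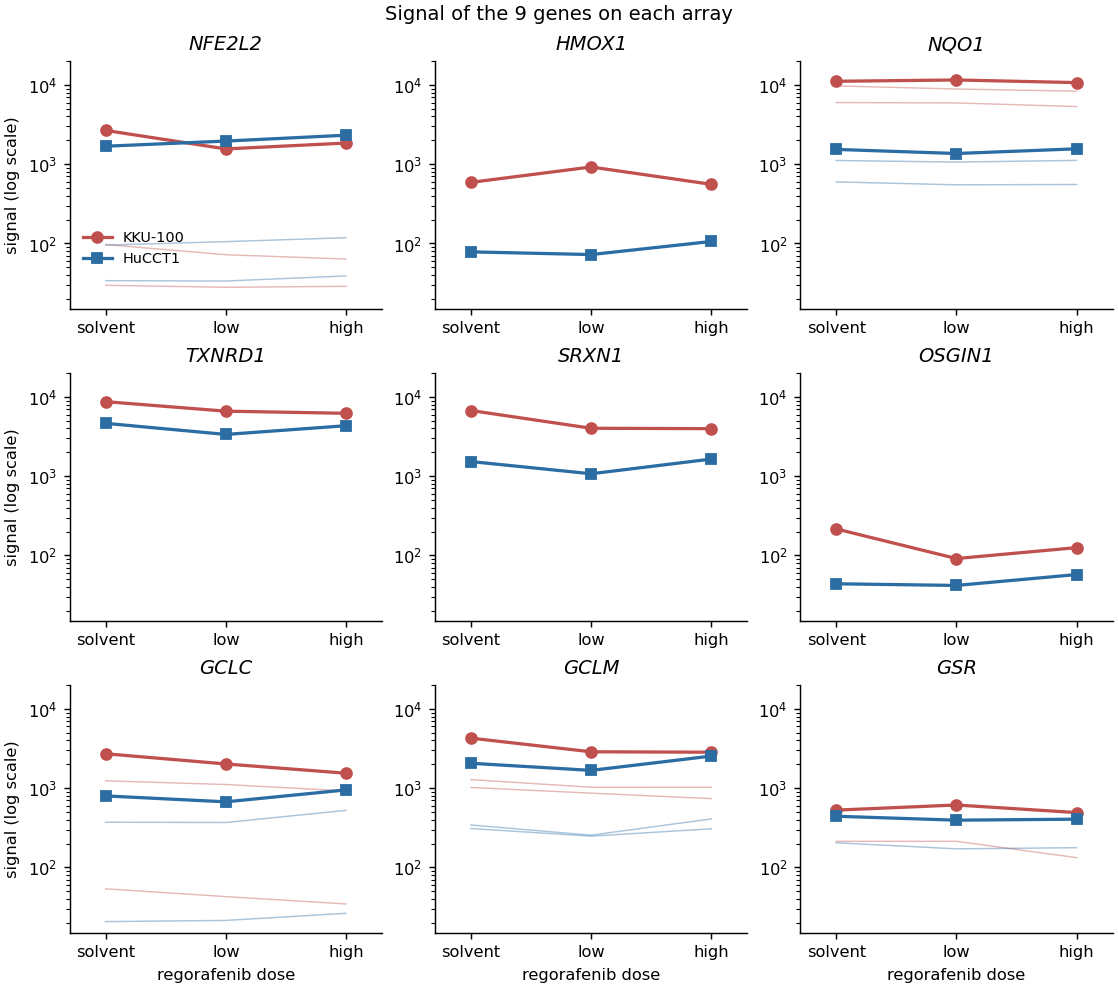
Signal (log axis, no unit) of the 9 genes on each of the 6 arrays by regorafenib dose in KKU-100 (red circles) and HuCCT1 (blue squares), with thick lines for the probe set that represents the gene and thin lines for its other probe sets; 1 TXNRD1 probe set with signals of 4.57 to 5.64 is not drawn. The thick red line stays above the thick blue one in 8 panels and crosses it in the NFE2L2 panel, and the thin lines of the second GSR probe set also cross.

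The difference between the lines was tested with limma on all 6 arrays, with the treatment as a block and Benjamini-Hochberg adjustment over 27307 probe sets. Its error comes from how far the KKU-100 minus HuCCT1 difference varied over the 3 treatments. It is not a spread of replicate cultures, since nothing marks the arrays as separate cultures. Of the 9 genes, 7 were higher in KKU-100 at an adjusted p under 0.05 and 0 were lower, while 26.1% of all probe sets were called higher and 25.0% lower. NQO1 differed by a log2 value of 2.90 ± 0.08 (standard error, adjusted p = 2.28e-05 by limma, 3 arrays a line) and HMOX1 by 2.99 ± 0.26 (adjusted p = 0.000529). These 2 enzymes set the upper end of the range among the 9 genes.

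SRXN1 differed by 1.77 ± 0.17 and OSGIN1 by 1.52 ± 0.27 (limma, adjusted p = 0.000748 and 0.00611). TXNRD1 differed by 0.80 ± 0.10 (adjusted p = 0.00165), GCLC by 1.35 ± 0.22 (adjusted p = 0.00455) and GCLM by 0.67 ± 0.17 (adjusted p = 0.0235). All these genes were higher in KKU-100 in 3 of 3 treatments. GCLM was no longer called without either low dose array (log2 0.61, adjusted p = 0.114 and 0.116), but its other 2 probe sets differed by 1.60 and 1.75.

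GSR missed the threshold, with 0.39 ± 0.13 (95% interval 0.05 to 0.73, limma adjusted p = 0.0574), and passed it without the KKU-100 solvent array (0.46, adjusted p = 0.0363) or the HuCCT1 solvent array (0.46, adjusted p = 0.0355). NFE2L2 had 0.00 ± 0.21 (95% interval −0.53 to 0.54, adjusted p = 0.997). Its other 2 probe sets were lower in KKU-100 but not called, with −0.47 (limma adjusted p = 0.106) and −0.30 (95% interval −0.57 to −0.02, adjusted p = 0.0705). Without either solvent array NFE2L2 was lower in KKU-100 by −0.33 (adjusted p = 0.0159 without the KKU-100 and 0.0141 without the HuCCT1 solvent array), where 1 residual degree of freedom was left. Thus 7 of the 8 other genes were called higher in KKU-100, and the interval of the probe set standing for NFE2L2 reached to both sides of 0.

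**Figure D2:**
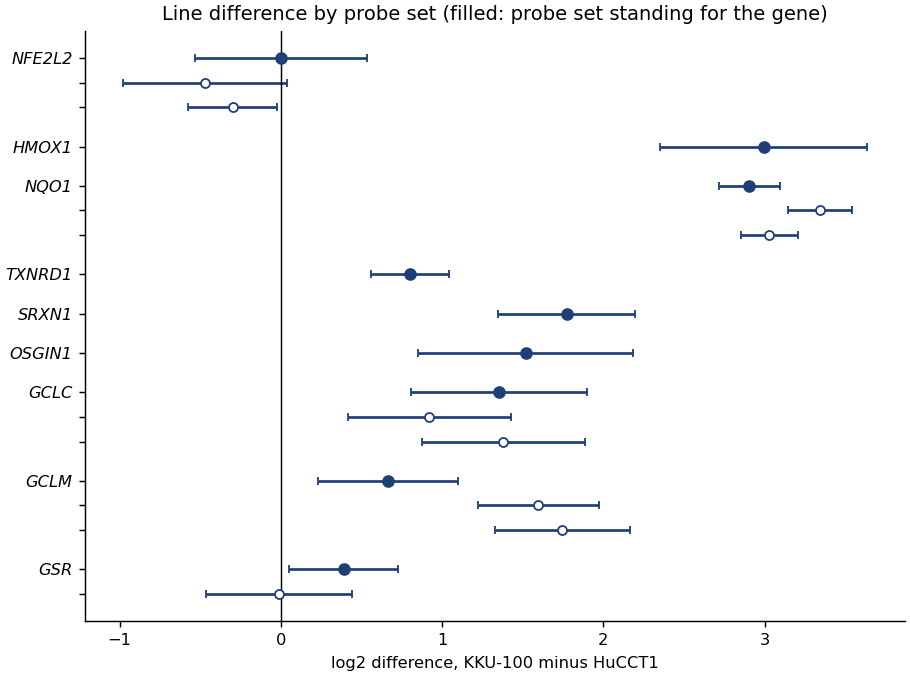
Log2 difference of KKU-100 minus HuCCT1 over the 3 treatments for 18 probe sets of the 9 genes, with limma 95% intervals; filled points represent the gene and open points are its other probe sets. NQO1 and HMOX1 lie near 3, NFE2L2 and the second GSR probe set at 0.00 and −0.01.

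Both lines are labelled as bile duct carcinoma, and their epithelial markers differed. KRT19 and EPCAM, markers of biliary epithelium, had signals of 8.62 to 11.1 in KKU-100, near the low end of the arrays, against 6432 to 9321 in HuCCT1. KRT7 and SOX9, from the same epithelial list, had signals of 917 to 1227 and 546 to 1059 in KKU-100. In HuCCT1 they had 10354 to 11038 and 644 to 1408. Thus KRT19 and EPCAM were at background in KKU-100, while KRT7 and SOX9 lay above the median level. KRT8 and KRT18, keratins of simple epithelia, were high in both lines. Of the 6 epithelial markers measured, 4 lay above the median level in KKU-100 and 6 in HuCCT1, and their summed signal was 17895 to 23771 in KKU-100 against 37917 to 43562 in HuCCT1. COL3A1, a collagen of mesenchymal cells, had 538 to 779 in KKU-100 against 6.51 to 8.63 in HuCCT1. The 5 fibroblast markers, 3 of them above the median level in each line, summed to 786 to 1062 in KKU-100 against 233 to 271 in HuCCT1, and COL3A1 made up that gap, since the other 4 summed to 248 to 284 against 225 to 264. The 4 hepatocyte markers, 2 of them above the median in each line, summed to 252 to 269 in KKU-100 against 2514 to 3612 in HuCCT1, a gap that SERPINA1, a secreted protease inhibitor, made up with 147 to 161 against 2411 to 3509, while ALB, albumin, was at 6.96 to 10.8 in both. The 3 leukocyte markers summed to 69.7 to 78.4 in KKU-100 against 82.8 to 89.4 in HuCCT1, and the 3 endothelial markers to 92.7 to 105 against 93.4 to 120. Of each of these lists, 1 marker lay above the median level in KKU-100 and 2 in HuCCT1, with PTPRC and CDH5 near the low end of the arrays. The part of these differences in the NRF2 target levels was not tested, and line and culture medium cannot be told apart.

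Wider gene lists showed which neighbours of the 9 genes differed between the lines in the same way. Of 34 other NRF2 targets tested, 27 were higher in KKU-100 and 2 lower by limma, beside 26.1% higher and 25.0% lower of all probe sets. Their median log2 difference was 1.03, beside 0.01 over all probe sets. ALDH3A1, an aldehyde dehydrogenase, had signals of 4253, 4376 and 3943 in KKU-100, against 42.5, 29.5 and 30.8 in HuCCT1 (log2 6.95 ± 0.15, adjusted p = 1.83e-05). The aldo-keto reductases AKR1C1, AKR1C2 and AKR1C3, which share much sequence, differed by 4.85, 4.97 and 4.54, and PIR by 3.47. CBR3, a carbonyl reductase, and TRIM16 were lower in KKU-100, by −1.91 and −0.54. These genes outside the 9 were picked for their values.

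Of 10 NRF2 regulators tested, 6 were higher in KKU-100 and 0 lower, and this and the following counts stand beside 26.1% higher and 25.0% lower of all probe sets. They were SQSTM1 (1.44), the autophagy receptor p62 that sequesters KEAP1, the ligase subunit RBX1 (0.58), NFE2L1 (0.32), an NRF2 relative, MAFG (0.73), a small MAF partner, and BTRC (0.46) and GSK3B (0.76), which direct another route of NRF2 destruction. KEAP1 differed by −0.03 ± 0.12 and BACH1 by 0.03 ± 0.26. Genes that make, use or remake glutathione were called in both directions. Of 17 genes of glutathione synthesis and turnover, 3 were higher in KKU-100 and 6 lower, and of 30 glutathione peroxidases and transferases 11 were higher, led by GSTT1 (4.60), and 14 lower, led by GPX3 (−4.34). Of 19 thioredoxin and peroxiredoxin genes, 10 were higher and 3 lower, and of 5 superoxide and peroxide enzymes 1 was higher and 2 lower.

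**Figure D3:**
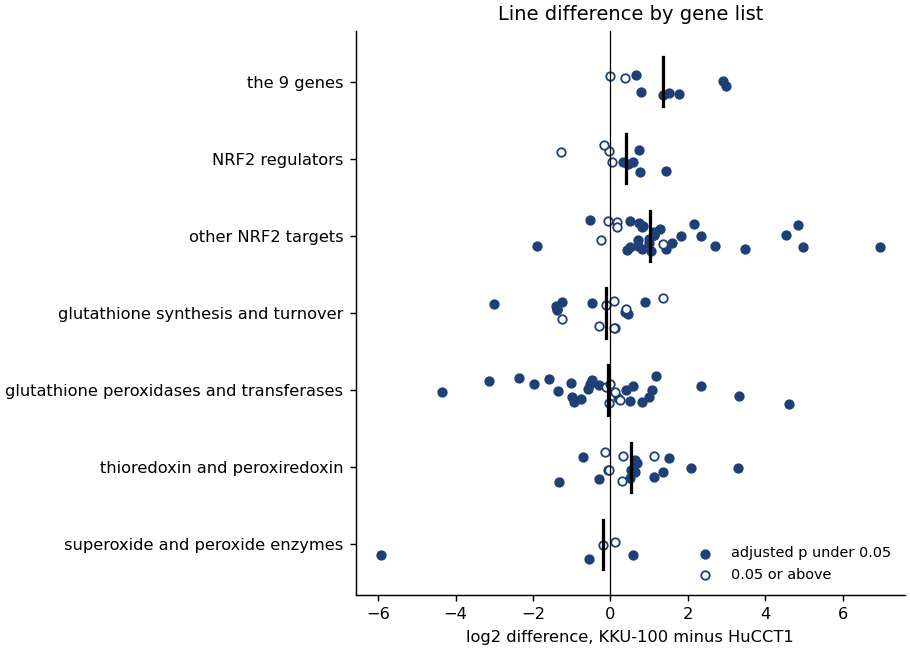
Log2 difference of KKU-100 minus HuCCT1 (limma over 6 arrays) for the genes of each list, 1 point per gene, with vertical bars at the list medians and filled points for an adjusted p under 0.05. The medians are 1.35 for the 9 genes and 1.03 for the other NRF2 targets, and −0.11 and −0.07 for the 2 glutathione lists.

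In KKU-100 cells treated with regorafenib several of the 9 genes had lower signals than in solvent, and HMOX1 was over 1.5-fold higher under the low dose. Under that dose SRXN1, OSGIN1 and NFE2L2 fell past 1.5-fold and HMOX1 rose, so that 3 of the 9 genes were called lower and 1 higher, while 7.32% of 12694 genes were lower and 9.75% higher. Under the high dose SRXN1, GCLM, GCLC and OSGIN1 fell and 0 of the 9 rose, while 4.86% of all genes were lower and 9.44% higher. The median log2 change of the 9 genes was −0.43 under the low and −0.53 under the high dose, beside 0.06 over all genes at each dose. Of any size, 6 of the 9 genes lay below solvent under the low dose and 9 under the high dose. How many of all genes lay below solvent at any size was not counted.

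OSGIN1 had the largest change of the 9 under the low dose, with log2 values of −1.24 under the low and −0.78 under the high dose. SRXN1 had nearly the same change at both doses, −0.74 and −0.76. OSGIN1 and SRXN1 were the only members of the 9 past the cutoff at both doses in KKU-100. TXNRD1 stayed within the cutoff, with −0.40 and −0.49, and so did NQO1, with 0.05 and −0.06.

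GCLC had −0.43 under the low and −0.82 under the high dose, but its 2 other probe sets had −0.42 and −0.63 under the high dose. GCLM had −0.57 and −0.59, just short of and just past the cutoff, and its other probe sets had −0.47 and −0.32 under the high dose. Under the high dose the GCLM call was lost with quantile normalization (−0.56) and with median centring of the arrays (−0.57), but on all 6 probe sets of the 2 subunits the high-dose signal was below solvent, by −0.82 to −0.32. GSR, which acts on oxidized glutathione and not in its synthesis, had 0.21 and −0.10, while its second probe set had 0.00 and −0.68.

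HMOX1 had a log2 change of 0.64 under the low dose and −0.08 under the high dose. It was the only 1 of the 9 genes to rise past 1.5-fold in KKU-100. Between the doses it fell past the cutoff, with −0.73 for the high against the low dose. No other of the 9 genes differed by 1.5-fold between the doses in this line, where 4.53% of genes were higher under the high than under the low dose and 1.74% lower. NFE2L2 had −0.77 under the low and −0.53 under the high dose, and its second probe set −0.43 and −0.61.

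In HuCCT1 cells none of the 9 genes passed 1.5-fold at either dose, where 3.68% of 12789 genes were higher and 3.32% lower under the low dose, and 8.23% higher and 6.44% lower under the high dose. Under the low dose 8 of the 9 genes lay below solvent, between −0.51 for SRXN1 and −0.07 for OSGIN1, and NFE2L2 lay above it with 0.22. Under the high dose 7 lay above solvent, up to 0.46 for NFE2L2, and TXNRD1 (−0.10) and GSR (−0.12) below it. For these counts at any size, the share of all genes was not counted. The median was −0.17 under the low dose and 0.25 under the high dose, beside 0.02 over all genes at each.

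All 9 genes had a higher signal under the high than under the low dose in HuCCT1. Their median log2 difference was 0.46, beside −0.01 over all genes, and the share of all genes higher at any size was not counted. Past 1.5-fold were SRXN1, with a log2 difference of 0.61, and GCLM, with 0.60, while 6.57% of genes were higher and 4.64% lower. HMOX1 had 0.55, GCLC 0.50 and OSGIN1 0.46, and NQO1 (0.20) and GSR (0.04) stood at the lower end. In KKU-100 the same comparison had 2 genes above 0, OSGIN1 with 0.46 and NFE2L2 with 0.25. The low dose arrays enter both this comparison and that with solvent, so the 2 sets of values are linked.

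**Figure D4:**
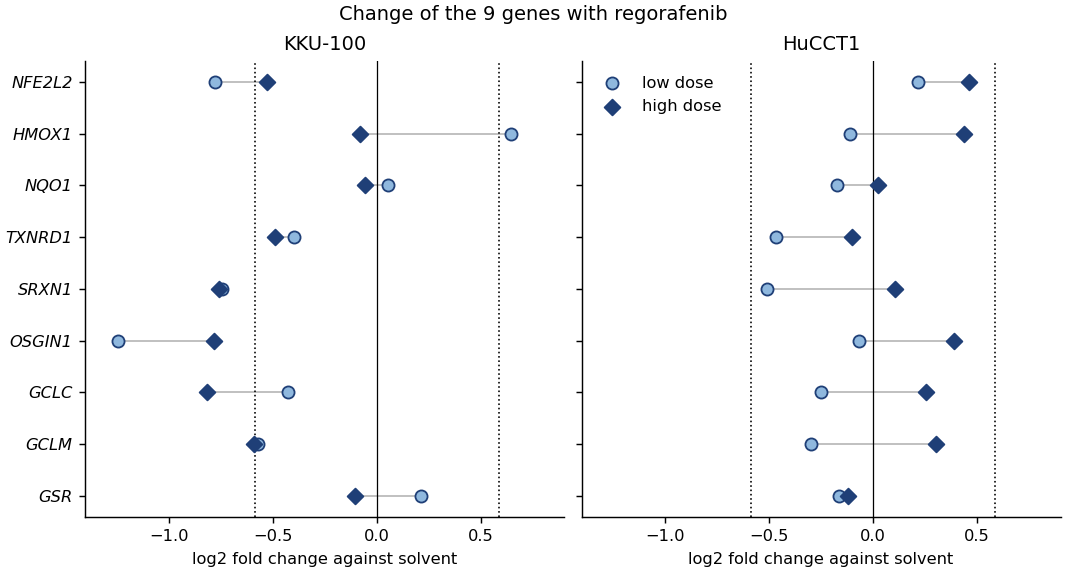
Log2 fold change of the 9 genes against the solvent array of the same line under the low dose (light circles) and the high dose (dark diamonds), 1 array each, with dotted lines at 1.5-fold. The KKU-100 points of OSGIN1 and SRXN1 lie left of the dotted line at both doses, and all HuCCT1 points lie between the dotted lines.

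A change common to both lines was tested with limma, with the line as a block (2 residual degrees of freedom). None of the 9 genes was called under the low dose, the high dose or between the doses, and 0.0% of the 27307 probe sets were called in each of the 3 comparisons. At an unadjusted p under 0.05, 2928 probe sets passed under the low dose, 4081 under the high dose and 2658 between the doses. The methods' t-test was run here as a paired test over the 2 lines, with Benjamini-Hochberg adjustment. It called 1, 5 and 2 probe sets in these comparisons and 0 of the 9 genes. TXNRD1 and SRXN1 came nearest under the low dose, lower in 2 of 2 lines, with −0.43 ± 0.12 (limma, unadjusted p = 0.013, adjusted p = 0.415) and −0.63 ± 0.21 (unadjusted p = 0.0264, adjusted p = 0.429). Without the HuCCT1 solvent array, so that the change from solvent was measured in KKU-100 alone, OSGIN1 (−1.24, adjusted p = 0.0262) and NFE2L2 (−0.77, adjusted p = 0.0238) passed the threshold under the low dose, as did 978 lower and 667 higher probe sets in all. This value compares 1 solvent array, and its error has 1 residual degree of freedom, from the likeness of the 2 lines in the high against low comparison, so it is no replicate check of the change from solvent.

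Whether the lines differed in their response was tested as the KKU-100 change minus the HuCCT1 change, with both doses taken as treated. The error of this fit, with 2 residual degrees of freedom, comes from the gap between the low and high dose within each line. The doses thus stand in for replicates, and the single solvent arrays add no spread to the standard errors and intervals. None of the 9 genes passed, and 0.0% of probe sets did, while 2241 had an unadjusted p under 0.05. NFE2L2 had −0.99 ± 0.24 (95% interval −1.61 to −0.37, limma unadjusted p = 0.00901, adjusted p = 0.594) and OSGIN1 −1.17 ± 0.43 (95% interval −2.25 to −0.09, unadjusted p = 0.0387, adjusted p = 0.605). GCLC had −0.62, GCLM −0.58 and SRXN1 −0.55, with adjusted p from 0.718 to 0.740. NQO1 had the narrowest interval, −0.35 to 0.50.

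Genes with the profile nearest to 3 of the 9 were sought among 12033 genes, by the root mean square difference of the 4 log2 changes (2 doses in 2 lines). The changes of GCLC were most like those of ASF1A (0.12), IL1RAP (0.12) and GCLM (0.14), the partner subunit of its enzyme. OSGIN1 was nearest to ZNF805 (0.05), SPTY2D1 (0.05) and EPC1 (0.06), and SRXN1 to IMPA1 (0.07), RPGR (0.07) and E2F6 (0.07). These are likenesses over 4 values that share 2 solvent arrays.

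Of the 10 regulators of NRF2 past the filter, MAFF, a small MAF partner of NRF2, had the largest change. Its signals were 2184, 129 and 272 in KKU-100 (solvent, low, high) and 1975, 800 and 693 in HuCCT1, so that it was below solvent on all 4 treated arrays, with log2 changes of −4.08 and −3.01 in KKU-100 and −1.30 and −1.51 in HuCCT1. BACH1, the repressor that competes for the same elements, had 675, 247 and 362 in KKU-100 and fell at both doses (−1.45 and −0.90), and in HuCCT1 it had −0.16 and −0.44. Thus both a partner and a competitor of NRF2 had lower signals in treated KKU-100 cells.

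MAFG stayed within the cutoff in both lines, between −0.42 and −0.22. KEAP1 had 0.13 and −0.18 in KKU-100 and −0.17 and −0.52 in HuCCT1, and CUL3 −0.13 and −0.50 in KKU-100 and −0.25 and −0.32 in HuCCT1, all within the cutoff. Under the high dose in HuCCT1, RBX1 fell (−0.64) and SQSTM1 rose (0.69), where KKU-100 had −0.11 and −0.55. NFE2L1, BTRC and GSK3B lay between −0.09 and 0.44 in both lines.

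Of the other NRF2 targets, 5 of 36 rose and 1 fell in KKU-100 under the low dose, and 2 rose and 1 fell under the high dose, beside 9.75% and 9.44% of all genes higher and 7.32% and 4.86% lower. In HuCCT1, 2 of 33 rose and 0 fell under the low dose, and 8 rose and 2 fell under the high dose, beside 3.68% and 8.23% of all genes higher and 3.32% and 6.44% lower. IDH1, the cytosolic isocitrate dehydrogenase that makes NADPH, rose by 0.70 and 0.73 in KKU-100 and by 0.72 and 0.69 in HuCCT1, past the cutoff on all 4 treated arrays. TRIM16 rose by 1.01 and 0.85 in KKU-100, and had 0.47 and 0.67 in HuCCT1. In KKU-100 under the low dose ABCC1, an exporter of glutathione conjugates, had 0.79, AKR1C3 0.81 and AKR1C2 0.73, whereas under the high dose in HuCCT1 ABCC1 had −0.85 and AKR1C3 −0.68. FECH, which inserts iron into heme, had 1.01 under the high dose in HuCCT1. The targets outside the 9 that were past the cutoff under the high dose thus included rises and falls in both lines.

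Of 18 genes of glutathione synthesis and turnover in HuCCT1, 4 rose under the low and 5 under the high dose, and 0 fell. Of all genes there, 3.68% rose and 3.32% fell under the low dose, and 8.23% and 6.44% under the high dose. Of 16 such genes in KKU-100, 0 rose and 3 fell under the low dose, and 2 rose and 1 fell under the high dose. The shares of all genes in KKU-100 were 9.75% and 7.32% under the low dose, and 9.44% and 4.86% under the high dose. CBS, which makes the cystathionine that CTH uses, stayed within the cutoff, with −0.10 and −0.27 in KKU-100, against 0.04 and −0.31 in HuCCT1. SLC7A11, the cystine transporter xCT, had 2034, 830.5 and 1239 in KKU-100, against 209, 431 and 1347 in HuCCT1. Its log2 changes were −1.29 and −0.71 in KKU-100, against 1.04 and 2.68 in HuCCT1, so that KKU-100 was the higher line by 3.28 in solvent and the lower line under the high dose. CTH, which makes cysteine from cystathionine, had 228, 167 and 257 in KKU-100, against 144, 483 and 1930 in HuCCT1, so that its order between the lines differed between solvent and the treated arrays.

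SLC3A2, the heavy chain that pairs with xCT, had log2 changes of −0.26 and 0.16 in KKU-100, against 0.49 and 2.19 in HuCCT1. CHAC1, which breaks glutathione down, had −0.94 and 1.01 in KKU-100, against 1.74 and 2.99 in HuCCT1. SLC1A4, a transporter of neutral amino acids, had 0.23 and 1.00 in KKU-100, against 0.64 and 1.09 in HuCCT1. SLC7A11, CTH, SLC3A2, CHAC1 and SESN2 are known from other cells as genes that ATF4, a factor of the amino acid response, can also drive.

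Among 28 glutathione peroxidases and transferases past the filter in a line, 1 rose at each dose in KKU-100 and 3 at each dose in HuCCT1, and 0 fell. In KKU-100 the gene past the cutoff under the high dose was GSTA4, a transferase (0.58 and 0.93). In HuCCT1, GPX8, a peroxidase of the endoplasmic reticulum, had 0.99 and 1.02, and GSTM4 1.55 and 1.15. GLRX, glutaredoxin, had 0.00 in KKU-100, against 0.65 in HuCCT1, under the high dose. Thus 27 of 28 genes of this list stayed within the cutoff in KKU-100 and 25 of 28 in HuCCT1 at each dose. Most of all genes did so too. In KKU-100 they were 10527 of 12694 under the low and 10879 under the high dose. In HuCCT1 they were 11893 of 12789 under the low and 10913 under the high dose.

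Among 19 thioredoxin and peroxiredoxin genes, SESN2, sestrin 2, had −1.88 and 0.18 in KKU-100, against 1.13 and 2.72 in HuCCT1. TXNIP, the thioredoxin-binding protein, had −2.00 and −0.59 in KKU-100, against −1.49 and 1.02 in HuCCT1, and MSRB2, a methionine sulfoxide reductase, 0.50 and 0.64 in HuCCT1. Of 5 superoxide and peroxide enzymes, CAT, catalase, rose at both doses in HuCCT1 (0.59 and 0.64) and the mitochondrial superoxide dismutase SOD2 under the high dose in both lines (0.63 in KKU-100, 0.74 in HuCCT1). Over the 6 lists together, with each gene once, 10 of 108 genes rose and 2 fell under the low dose in HuCCT1. Under the high dose 20 rose and 4 fell in that line. Of all genes in HuCCT1, 3.68% rose and 3.32% fell under the low dose, and 8.23% and 6.44% under the high dose. In KKU-100, 7 of 109 rose and 7 fell under the low dose, and 6 rose and 4 fell under the high dose. Of all genes in KKU-100, 9.75% rose and 7.32% fell under the low dose, and 9.44% and 4.86% under the high dose.

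**Figure D5:**
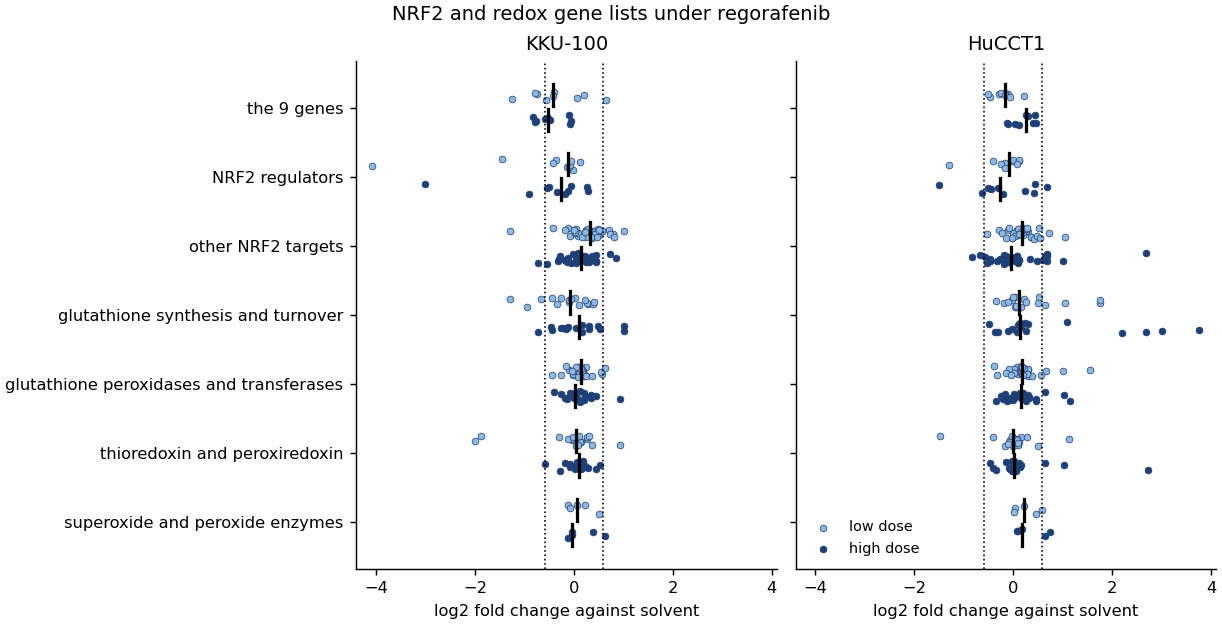
Change from solvent (log2) under the low dose (light) and the high dose (dark) for the genes of each list past the level filter, 1 point per gene, with black bars at the medians and dotted lines at 1.5-fold. MAFF is the point near −4 and −3 in KKU-100, and CTH, CHAC1, SLC7A11 and SLC3A2 are the points past 2 of the glutathione synthesis list in HuCCT1.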

How the data were processed

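RNA of 6 samples (2 lines, each with solvent, low and high dose) was measured, 1 array each. The authors deposited linear signal intensities. Their processing notes name MAS5 without a version, and GeneSpring with a log2 normalization stands in the study's methods. The genome build of the annotation is not given in the sources used here. The lowest signals of the arrays were 3.63 to 4.05 and the highest 19904 to 20640.3. Precision is limited by the number of arrays.

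After removal of 62 control probe sets, 54613 of 54675 were kept, of which 41091 carry 1 gene symbol, 1801 several and 11721 none. Signals were log2 transformed. The level filter was the 50th percentile of the mean log2 signal, within a line for fold changes and over 6 arrays for limma 3.58.1 (in R 4.3.3, with a trend in eBayes; prior degrees of freedom 3.41, and 3.20 with the interaction), whose script was tested on simulated data. Other steps used Python 3.11.15 with pandas 2.3.3. Groups came from the sample labels.

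The genes named were the 9 genes, all NRF2 regulators, and of each wider list up to 5 genes per line with the largest high-dose change past 1.5-fold in 1 direction on both treated arrays and up to 3 past it at the high dose only. Other genes were named after their values were seen. The 9 genes and the lists were chosen with earlier results of these data known. Alternatives were quantile normalization, median centring, a floor at the 20th percentile (a signal of 9.57), no filter, a filter at the 60th percentile, other choices of probe set, a 2-fold cutoff, other eBayes options, a linear dose term, the omission of each array in turn and the methods' t-test.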

Additional observations from a re-analysis of the deposited data

Results flagged for a closer look

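The 9 genes, the NRF2 regulators and the genes named by rule from the wider lists were searched for opposite changes in the 2 lines. Of those past the level filter in both lines, 5 lay on opposite sides of solvent on all treated arrays, with no minimum size. GSTM4, below the filter in KKU-100, had −0.45 and −0.26 there, against 1.55 and 1.15 in HuCCT1. BACH2, below the filter in both lines, had 0.17 and 0.12 in KKU-100, against −0.07 and −0.19 in HuCCT1. For each of the 5 genes the KKU-100 change minus the HuCCT1 change was tested by limma and missed the threshold. NFE2L2 had −0.775 under the low and −0.53 under the high dose in KKU-100, against 0.22 and 0.46 in HuCCT1 (limma adjusted p = 0.594). SLC7A11 had −1.29 and −0.71 in KKU-100, against 1.04 and 2.68 in HuCCT1 (adjusted p = 0.602). SQSTM1 had −0.41 and −0.55 in KKU-100, against 0.12 and 0.69 in HuCCT1 (adjusted p = 0.605). ABCC1 ran the other way, with 0.79 and 0.30 in KKU-100, against −0.29 and −0.85 in HuCCT1 (adjusted p = 0.613). GSK3B had −0.058 and −0.065 in KKU-100, against 0.067 and 0.41 in HuCCT1 (adjusted p = 0.824). All values are log2 changes from 1 solvent array per line.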

How the results depend on the processing

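The labels give no replicate numbers by which samples could be paired, and the limma fits already hold line or treatment as a block. With a 2-fold cutoff, the counts of the 9 genes in KKU-100 became 0 higher and 1 lower under the low dose (OSGIN1), 0 lower under the high dose and 0 lower at the high against the low dose, and in HuCCT1 0 higher at the high against the low dose. In HuCCT1 the wider lists then had 5 genes higher under the low dose, and 10 higher and 1 lower under the high dose. In KKU-100 they had 1 higher under the low dose, and 2 higher and 1 lower under the high dose. Lower past 2-fold under the low dose in KKU-100 were MAFF (−4.08), TXNIP (−2.00), SESN2 (−1.88), BACH1 (−1.45) and SLC7A11 (−1.29). In HuCCT1 these were TXNIP (−1.49) and MAFF (−1.30). The methods' t-test, run here as a test paired by treatment, called 1 of the 9 genes higher in KKU-100 than in HuCCT1, against 7 by limma. Leaving out each array in turn gave 6 to 8 genes higher and 0 to 1 lower between the lines, and 0 to 2 lower under the low dose. The 1 gene lower was NFE2L2, with −0.33 without either solvent array (range −0.33 to 0.17 over the arrays), and the 2 lower under the low dose appeared without the HuCCT1 solvent array. As a median over all probe sets, the changes in KKU-100 were −0.47 for GCLM under the high dose and −0.43 for NFE2L2 under the low dose, and the line differences in solvent were 0.47 for TXNRD1 and 0.02 for NFE2L2, all within 1.5-fold. With probe sets open to several transcripts left out, GCLC had −0.42 under the high dose in KKU-100 and NQO1 had no probe set. With quantile normalization GSR passed in the line comparison (0.39, adjusted p = 0.0483). The cause of these shifts was not tested. The response difference could not be estimated without a solvent array, and a fold change has no value without either of its arrays.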
